A study of Mus musculus with 15 samples.

Results

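Gata2 encodes a zinc finger transcription factor of blood stem cells, early progenitors and mast cells. Its transcript was followed over 5 lines of G1E cells, an immature red cell line of the mouse that lacks GATA1. Gata2 was taken as every probe set that the array annotation gives to Gata2 alone, which was 1 of 28350 probe sets, and it was 1 of 19933 genes tested. The lines carried GATA1-ER, a fusion of GATA1 to an estrogen receptor domain that estradiol switches on, either in the wild type form or with R216Q, R216W, D218G or D218Y, and all had received 100 nM estradiol for 24 hours. Each line was measured on 3 arrays labelled as biological replicates, and no untreated cells were analysed here. All groups share the GATA1-null background and the estradiol, so every difference below is between induced cultures. The labels do not say how many clones or pools stand behind a construct, so a line and its mutation cannot be told apart.

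GATA factors bind the letters GATA in DNA, and GATA1 and GATA2 can occupy the same sites. In maturing red cells GATA1 takes the place of GATA2 at the Gata2 locus and shuts the gene down, a step known as the GATA switch, in which the cofactor FOG1 (gene Zfpm1) and the NuRD repressor complex take part. R216 and D218 lie in the amino-terminal zinc finger of GATA1: R216 belongs to the side that meets DNA, and D218 to the side that meets FOG1.

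RefSeq lists 2 starts for mouse Gata2 on the plus strand of chromosome 6, 4773 bases apart. Only 1 value per array was deposited, so transcripts from these starts are not told apart here. The 250 bases before each start are shown (RefSeq, GRCm38.p6), with every CCAAT or its reverse ATTGG in capitals, and every GATA or TATC would also be in capitals. These bases lie upstream of each start, and which start gave the measured transcript was not tested.
Distal start, chr6:88193641-88193890, plus strand: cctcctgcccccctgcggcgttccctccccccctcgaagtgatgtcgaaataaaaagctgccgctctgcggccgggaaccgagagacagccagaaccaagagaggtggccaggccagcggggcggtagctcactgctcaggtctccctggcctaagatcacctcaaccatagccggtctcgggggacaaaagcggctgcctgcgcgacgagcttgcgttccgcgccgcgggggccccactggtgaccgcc
Proximal start, chr6:88198414-88198663, plus strand: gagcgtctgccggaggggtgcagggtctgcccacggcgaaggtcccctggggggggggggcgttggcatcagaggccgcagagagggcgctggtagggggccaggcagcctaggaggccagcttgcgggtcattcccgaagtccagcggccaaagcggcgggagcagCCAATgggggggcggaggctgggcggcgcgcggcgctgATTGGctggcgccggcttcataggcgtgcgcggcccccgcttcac
The proximal window held 2 CCAAT motifs and the distal window 0, and CCAAT was present on either strand in 33.8% of 32851 mouse windows of the same length. GATA was in neither Gata2 window on either strand, against 53.6% of all windows. This says only that these letters are not in these windows. Both windows were rich in G and C, at 67.2% for the distal and 74.0% for the proximal start, where the median window held 52.4%.

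Gata2 differed widely between the lines. The log2 RMA values (a normalised array scale on which 1 unit is a doubling) were 7.99, 8.02 and 8.06 in D218G, the lowest line. The wild type arrays read 8.29, 8.25 and 8.41. The R216Q arrays read 9.48, 9.49 and 9.48, and the R216W arrays read 9.51, 9.59 and 9.61. D218Y was highest, at 11.17, 11.15 and 11.16. No Gata2 value of any line overlapped those of another line, although the narrowest gap, between R216Q and R216W, was 0.03. The share of all genes that separate in this way is not given here, so separation alone does not set Gata2 apart. The line means were 8.03 ± 0.037 for D218G, 8.31 ± 0.081 for wild type, 9.48 ± 0.004 for R216Q, 9.57 ± 0.05 for R216W and 11.16 ± 0.011 for D218Y (SD, n = 3 each).

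The wild type arrays spread most, because replicate 3 lay above the others. In R216Q 98.7% of genes had a larger SD than Gata2, and in wild type 36.8% did. The fit below pools the spread over all lines, which gives each difference between a pair of lines the same standard error (SE).

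**Figure D1:**
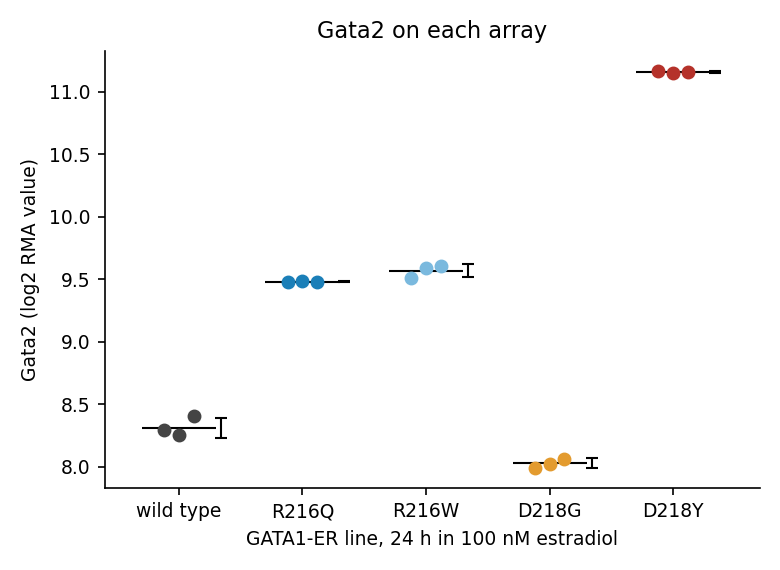
Gata2 log2 RMA value (vertical axis) on each of 15 arrays, by GATA1-ER line (horizontal axis). Points are arrays, horizontal lines are line means and bars at the right are SD (n = 3). D218Y stands highest at 11.16, both R216 lines lie near 9.5, and D218G lies just under wild type.

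Against wild type, Gata2 rose in 3 of the 4 mutant lines and fell in D218G. Gata2 rose by 2.85 ± 0.04 in D218Y (log2, SE, n = 3 per line; limma with Benjamini-Hochberg adjustment over all genes, adjusted p = 2.29e-15), a 7.21-fold higher level (95% interval 6.77 to 7.68). In R216W Gata2 rose by 1.26 ± 0.04 (adjusted p = 6.56e-11), or 2.39-fold (2.24 to 2.54). In R216Q Gata2 rose by 1.17 ± 0.04 (adjusted p = 1.41e-10), or 2.25-fold (2.11 to 2.39). On the log2 scale the R216Q and R216W rises were 41.0% and 44.1% of the D218Y rise. In D218G Gata2 fell by 0.29 ± 0.04 (adjusted p = 1.79e-04), to 0.82 of the wild type level (0.77 to 0.87). These 4 comparisons share the wild type arrays.

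Many genes passed in the same comparisons, so a call alone does not set Gata2 apart. The share of all genes called in either direction was 44.4% in D218Y, 16.6% in R216W, 21.5% in R216Q and 18.1% in D218G. By size, Gata2 had the 15th largest rise of 19933 genes in D218Y, the 26th in R216W and the 41st in R216Q. Its fall in D218G was the 603rd largest. The F test over the lines, which 41.9% of genes passed, placed Gata2 4th of all genes (adjusted p = 5.57e-15). For each of the 10 pairs of lines an exact permutation test (two-sided, 3 arrays a line) reached p = 0.1, its smallest possible value.

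Between mutants, all pairs differed except the R216 pair. R216W was 0.09 ± 0.04 above R216Q (95% interval -0.0041 to 0.18, adjusted p = 0.232; 16.9% of genes passed in this comparison), which leaves room for a difference of up to 1.13-fold. With arrays weighted by quality this difference passed (0.09 ± 0.03, adjusted p = 0.0376). The D218 substitutions lay at opposite ends of the range. D218Y was 3.14 ± 0.04 above D218G (adjusted p = 1.73e-15; 33.0% of genes passed), an 8.80-fold higher level (8.27 to 9.38) and the 4th largest rise of all genes in that comparison. The gap between substitutions was thus 3.05 ± 0.06 wider at D218 than at R216 (adjusted p = 1.26e-13; 28.6% of genes passed the same test).

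D218G was 1.46 ± 0.04 below R216Q (adjusted p = 2.87e-11; 13.4% of genes passed), the 9th largest fall of all genes there. It was 1.54 ± 0.04 below R216W (adjusted p = 2.69e-12; 22.0% of genes passed). D218Y was 1.68 ± 0.04 above R216Q (adjusted p = 1.25e-12; 31.8% of genes passed) and 1.59 ± 0.04 above R216W (adjusted p = 5.98e-13; 36.3% of genes passed). The order from low to high was D218G, wild type, R216Q, R216W and D218Y, and R216Q and R216W were the neighbours whose difference did not pass.

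**Figure D2:**
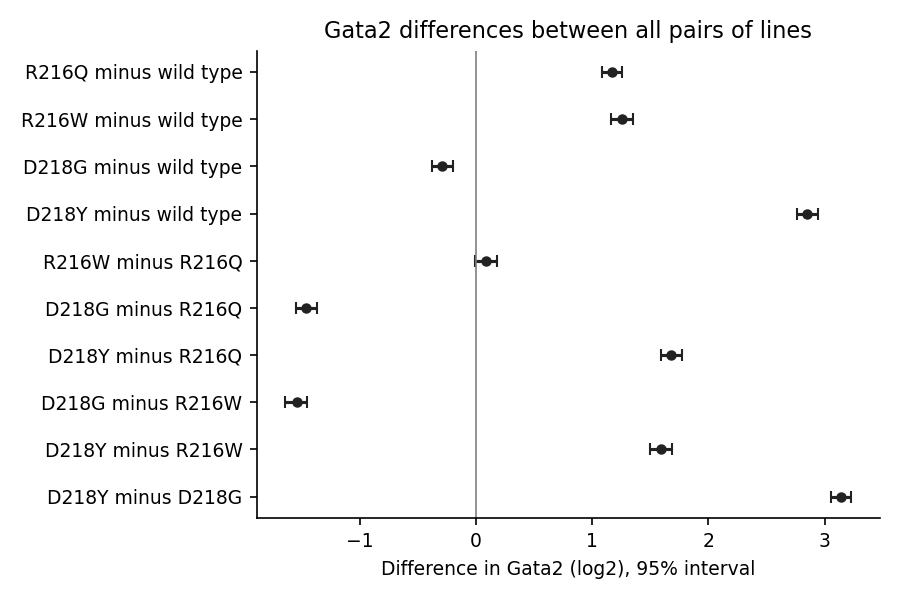
Difference in Gata2 (log2, horizontal axis) for each of the 10 pairs of lines (vertical axis). Points are limma estimates and bars are 95% intervals; the interval of R216W minus R216Q reaches 0 and the others do not.

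Array medians lay close together. The median of an array was 6.31 to 6.41 in wild type and 6.24 to 6.29 in D218Y, and with every array centred on its median the D218Y rise was 2.94. Replicate 3 of D218G had a median of 6.25, below 6.37 and 6.40 in the other arrays of that line, and without it the D218G fall was 0.31 (log2 difference -0.31). Median centring also changed the share of called genes that were higher in D218Y than in wild type, from 45.6% to 67.1%, so the direction of small changes in D218Y depends on the scaling.

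Of the 7 GATA family genes measured, Gata2 had the largest changes. Gata1, measured on the arrays as the targeted gene, read 12.35, 12.36 and 12.36 in wild type and 12.07, 12.05 and 12.08 in D218Y. It fell by 0.29 ± 0.03 in D218Y (adjusted p = 1.12e-06), by 0.21 ± 0.03 in R216Q (adjusted p = 1.08e-04) and by 0.11 ± 0.03 in R216W, where the call was lost with median centring and when any array of R216W or wild type was left out (adjusted p 0.0512 to 0.0719). In D218G Gata1 was at 0.00 ± 0.03 (adjusted p = 0.961). Whether this probe set reads the fusion, the disrupted allele or both was not tested. Gata3, a factor of T cells and mast cell precursors, rose in D218Y by 0.54 ± 0.06 (adjusted p = 5.17e-06) from 5.58 ± 0.04 (SD, n = 3) in wild type. It was at 0.00 ± 0.06 in R216Q, 0.02 ± 0.06 in R216W and -0.02 ± 0.06 in D218G.

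The other family members lay within 0.19 of wild type in every line. Gata4 and Gata6, factors of heart and gut, passed in no line, with D218Y differences of -0.14 ± 0.08 and -0.14 ± 0.07. In D218Y Gata4 did pass with array weights (-0.19) and without replicate 2 of wild type (-0.22), and Gata6 without replicate 1 of wild type (-0.20) or replicate 2 of D218Y (-0.19). Gata5 (-0.17 ± 0.06, adjusted p = 0.0445) and Trps1, a GATA-type repressor (-0.19 ± 0.05, adjusted p = 0.00649), fell in D218Y. Both calls were lost under quantile, cyclic loess or median scaling, and that of Gata5 also with the replicate number as a block (adjusted p = 0.057), under other variance settings and without 8 single arrays, among them replicate 1 or 3 of wild type and replicate 1 or 2 of D218Y.

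Genes of the GATA1 complex, a list that counts Gata1 itself beside its partners, moved in several directions. Gata1 is among the falls in R216Q, R216W and D218Y. Of 14 measured genes of the GATA1 complex, 9 fell and none rose in R216Q, 7 fell and 1 rose in R216W, 5 fell and 3 rose in D218G, and 9 fell and 3 rose in D218Y. Over all genes 9.65% fell and 11.8% rose in R216Q, 7.23% and 9.36% in R216W, 7.77% and 10.3% in D218G, and 24.2% and 20.3% in D218Y. The medians of the list were -0.19, -0.09, -0.06 and -0.15, where those of all genes were -0.01, -0.02, -0.02 and -0.07. With median centring 2 genes fell in R216W, 3 in D218G and 6 in D218Y. The gene and marker lists here and below were chosen with earlier results of these data known. Their counts beside the shares over all genes are therefore a description and test nothing. Zfpm1, which encodes FOG1, read 11.69 to 11.76 in wild type and 11.47 to 11.49 in D218Y, a fall of 0.25 ± 0.03 (adjusted p = 2.36e-05). In D218G, the other line with a change at the FOG1-facing residue, Zfpm1 was at -0.04 ± 0.03 (adjusted p = 0.545).

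Single members of the complex changed by more than these medians. Ssbp2, a stabiliser of the LDB1 scaffold, fell by 1.47 ± 0.04 in D218Y, 0.67 ± 0.04 in D218G and 0.58 ± 0.04 in R216Q, and was at 0.09 ± 0.04 in R216W (adjusted p = 0.138). In R216W Ssbp2 did pass as higher with trended and robust moderation (adjusted p = 0.0329), no moderation (0.0426) or array weights (0.0361). Tal1, the DNA-binding helix-loop-helix partner, fell by 0.82 ± 0.04 in D218Y (adjusted p = 7.45e-11). Cbfa2t3, the ETO2 corepressor, fell by 0.56 ± 0.04 in R216Q and by 0.13 ± 0.04 in D218Y, a call that was lost with median centring. Lyl1, a relative of Tal1 that works in progenitors, rose by 0.87 ± 0.05 in D218Y, with 10.28, 10.24 and 10.21 against 9.32, 9.33 and 9.47 in wild type.

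NuRD, the chromatin remodelling and deacetylase complex that FOG1 recruits, had 13 measured genes. In D218Y 8 of them rose and 3 fell, with a median of 0.15. In R216Q 4 rose and 3 fell, in R216W 4 rose and 0 fell, and in D218G 4 rose and 2 fell. The shares over all genes given for the GATA1 complex apply to these and the following counts: in D218Y 20.3% of all genes rose and 24.2% fell, and in R216Q 11.8% rose and 9.65% fell. With median centring 1 rose and 1 fell in R216Q, 2 rose and 1 fell in D218G, and 8 rose and 0 fell in D218Y. Without replicate 3 of D218G, 3 rose and 1 fell in that line. The largest changes in D218Y were small beside that of Gata2: Mbd3 rose by 0.51 ± 0.04, Rbbp7 by 0.48 ± 0.04 and Hdac2 by 0.38 ± 0.04. Chd3 rose by 0.44 ± 0.04 in R216W and fell by 0.27 ± 0.04 in D218G.

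Of 20 measured genes known to act upstream of Gata2, none rose and 7 fell in R216Q, 7 rose and 3 fell in R216W, 2 rose and 5 fell in D218G, and 5 rose and 9 fell in D218Y. The 5 rises in D218Y are near the share of all genes, 20.3%, and over all genes 9.36% rose in R216W and 9.65% fell in R216Q. With median centring 4 rose and 1 fell in R216W. Gata1, Zfpm1, Lmo2, Lyl1 and Tal1 of this list are also in the GATA1 complex list, so the counts share genes. Runx1, a core factor of blood stem cells, fell by 0.95 ± 0.04 in D218Y, 0.60 ± 0.04 in D218G and 0.19 ± 0.04 in R216Q, and rose by 0.32 ± 0.04 in R216W. Spi1, the myeloid factor PU.1, read 9.15, 9.10 and 9.08 in wild type and 10.02, 9.83 and 9.80 in D218Y, a rise of 0.78 ± 0.10. Spi1 fell in the other mutants, by 0.93 ± 0.10 in R216Q, 0.78 ± 0.10 in R216W and 0.78 ± 0.10 in D218G. Fli1, an Ets factor of megakaryocytes, rose by 0.58 ± 0.07 in D218G, the line with the lowest Gata2, and fell by 0.54 ± 0.07 in R216Q.

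Bmp4, whose signal is known to switch Gata2 on, the signal carrier Smad1 and the receptor gene Notch1 passed in no line, but calls in D218Y depended on the setting. Bmp4 was at -0.19 ± 0.08 there and passed with array weights (adjusted p = 0.00382) and without replicate 3 of D218G (adjusted p = 0.00561). Smad1, at -0.12 ± 0.06, passed with array weights (-0.15, adjusted p = 0.0152). Notch1, at -0.16 ± 0.08, passed with quantile scaling (-0.21, adjusted p = 0.0393), with array weights (adjusted p = 0.0108) and without replicate 2 of D218G (adjusted p = 0.0372).

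Genes for partners of the GATA2 protein and for its turnover numbered 14. Of these 2 rose and 6 fell in R216Q, 3 rose and 3 fell in R216W, 2 rose and 4 fell in D218G, and 5 rose and 5 fell in D218Y, where 20.3% of all genes rose and 24.2% fell. With median centring 2 fell in R216Q and 1 rose in D218G. Zfpm1, Lmo2 and Spi1 of this list are also among the upstream genes above, so the counts share genes. Fbxw7, a ubiquitin ligase subunit that marks GATA2 for destruction, fell by 0.61 ± 0.05 in D218Y and rose by 0.24 ± 0.05 in R216W. The R216W call was lost when the probe sets of the gene were averaged (adjusted p = 0.258). Akt1, a kinase that acts on GATA2, rose by 0.75 ± 0.04 in D218Y, 0.28 ± 0.04 in R216W and 0.27 ± 0.04 in R216Q, and was at 0.09 ± 0.04 in D218G (adjusted p = 0.119). In D218G Akt1 did pass with trended and robust moderation (adjusted p = 0.0399) and with no moderation (adjusted p = 0.0412). Zbtb16, the zinc finger protein PLZF, had its values at 9.84 on all wild type arrays. It rose by 0.69 ± 0.04 in R216Q, 0.58 ± 0.04 in R216W and 0.39 ± 0.04 in D218Y, and fell by 0.24 ± 0.04 in D218G, the same signs as Gata2 with another order of sizes.

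Genes of progenitors and mast cells at which GATA2 is known to act went with Gata2 in part. Of 18 measured, 10 rose and 1 fell in D218Y, with a median of 0.41. In R216Q 6 rose and 1 fell (median 0.03), in R216W 5 rose and 0 fell (median -0.03), and in D218G 4 rose and 1 fell (median -0.03). Over all genes 20.3%, 11.8%, 9.36% and 10.3% rose in D218Y, R216Q, R216W and D218G. The single fall in D218G became 0 with median centring and 2 with cyclic loess or without replicate 3 of that line. Lyl1, Meis1 and Erg of this list are also among the upstream genes above. Kit, the stem cell factor receptor, read 9.54, 9.56 and 9.42 in wild type, 10.98, 10.93 and 10.98 in R216Q, and 10.32, 10.37 and 10.37 in R216W. In D218G Kit read 10.04, 10.05 and 10.10, and in D218Y 11.55, 11.54 and 11.53. No mutant array of Kit overlapped wild type, and all 4 mutants were higher. As for Gata2, the share of all genes without overlap is not given, so this alone does not set Kit apart.

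D218G was thus the line in which Gata2 and Kit took opposite directions, with Gata2 at -0.29 ± 0.04 and Kit at 0.55 ± 0.04 (adjusted p = 2.40e-07). The homeobox gene Hhex, active in blood progenitors, also rose in D218G, by 0.74 ± 0.10 (adjusted p = 9.03e-05), as did Myb by 0.88 ± 0.03 and Myc by 0.48 ± 0.05, regulators of progenitor growth. The order of Kit differed from that of Gata2 at R216 as well: Kit was 0.61 lower in R216W than in R216Q (log2 difference -0.61, adjusted p = 5.66e-08), where Gata2 did not pass. In D218Y Hhex rose by 3.16 ± 0.10, from 6.86, 7.05 and 6.56 to 9.98, 9.99 and 9.97.

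**Figure D3:**
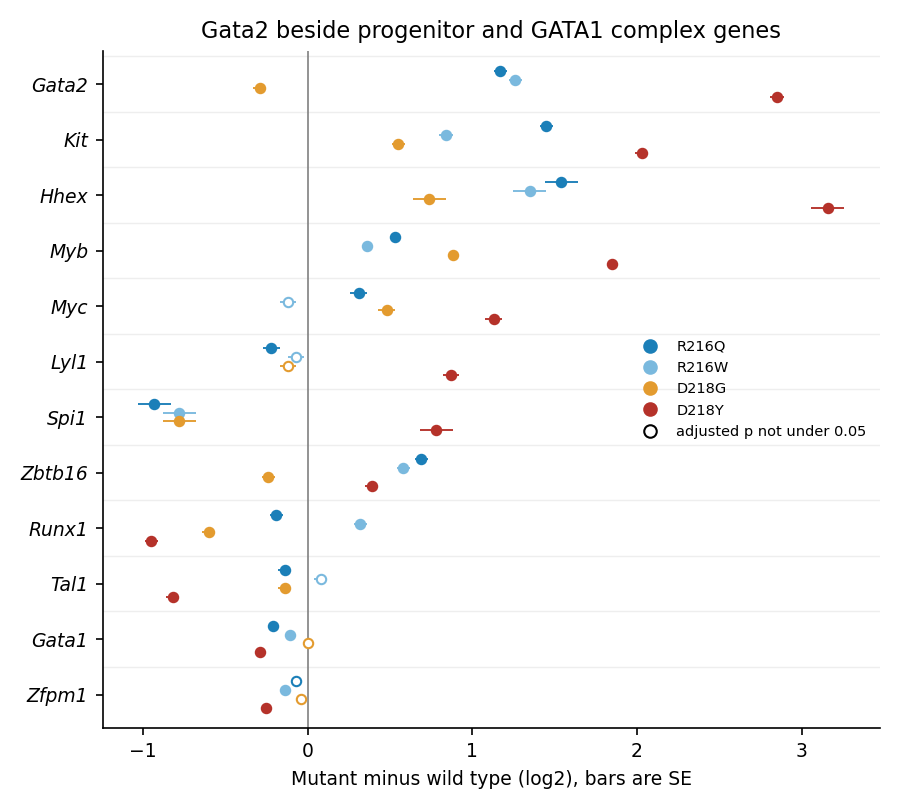
Mutant minus wild type difference (log2, horizontal axis) of Gata2 and 11 progenitor and GATA1 complex genes (vertical axis), by mutant. Points are limma estimates, bars are SE and open points did not reach an adjusted p under 0.05. Gata2 lies at -0.29 in D218G, where Kit, Hhex, Myb and Myc lie above 0.

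Tac2 and Ms4a2, of the same list, had their large changes in D218Y. Tac2, a tachykinin gene, rose by 3.24 ± 0.09 in D218Y, with 8.51, 8.14 and 8.27 against 5.01, 5.03 and 5.16 in wild type. In R216Q Tac2 was at 0.26 ± 0.09 (adjusted p = 0.0597), and it passed there with quantile scaling (0.28), trended and robust moderation (0.26) or array weights (0.31), and without replicate 3 of R216W or replicate 1 or 2 of D218Y. Ms4a2, the beta chain of the IgE receptor, rose by 2.46 ± 0.08, from 4.12, 4.02 and 4.16 to 6.54, 6.36 and 6.78. D218Y was above each other mutant line in both genes, by 2.97 to 3.43 for Tac2 and by 2.44 to 2.53 for Ms4a2. Hdc, which makes histamine, rose by 1.11 ± 0.06 in D218Y and by 0.35 ± 0.06 in R216Q (adjusted p = 8.75e-04). Samd14, whose own GATA-bound element resembles one in Gata2, went the other way and fell by 0.99 ± 0.03 in D218Y. Cd34, Gpr65, Mitf, Fcer1a and Slc18a2 passed in no line, although Gpr65 was lower in D218Y with array weights (-0.11, adjusted p = 0.0145).

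Markers of mast cells, a cell type that keeps Gata2 on, moved with D218Y. Of 9 measured markers (of 10 listed) 5 rose and 1 fell there, and the mean log2 level of the list was 6.51 to 6.59, against 5.54 to 5.57 in wild type. Tpsab1, a mast cell tryptase, rose by 3.06 ± 0.06. Fcer1a (0.00 ± 0.04), Cma1 (-0.01 ± 0.04) and Tpsb2 (-0.09 ± 0.07) did not pass, and Mcpt4 fell by 0.17 ± 0.05, a call that was lost with quantile or median scaling. In R216Q 2 markers rose (list mean 5.76 to 5.79), in R216W 1 (5.61 to 5.64) and in D218G 1 (5.58 to 5.62), and Kit was among them in each line. Over all genes 20.3% rose and 24.2% fell in D218Y, and 11.8%, 9.36% and 10.3% rose in R216Q, R216W and D218G. The counts of 1 in R216W and D218G are thus near the share of all genes. Kit, Fcer1a, Ms4a2, Cpa3 and Hdc are also in the progenitor and mast cell list above, so the counts share genes. The part of the mast cell markers in the Gata2 result was not tested. In RNA from whole cultures, more cells of a type and more RNA per cell cannot be told apart.

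The markers of the labelled cell type were present in all lines and lowest where Gata2 was highest. The mean log2 level of 9 measured red cell markers was 11.28 to 11.30 in wild type, 10.69 to 10.73 in R216Q, 10.99 to 11.06 in R216W, 10.75 to 10.79 in D218G and 9.45 to 9.49 in D218Y. Megakaryocyte markers, for another cell type with Gata2, did not rise together: of 7 measured, 1 rose and 3 fell in D218Y, and 0, 0 and 1 rose in R216Q, R216W and D218G. The rise in D218G was that of Gp5 (0.24 ± 0.08, adjusted p = 0.0497), and it was lost with median centring and without any of 12 single arrays, for example replicate 3 of D218G (0.18, adjusted p = 0.167). In D218Y Gp5 rose by 1.08 ± 0.08, whereas Tubb1 fell by 2.82 ± 0.09 and Gp9 fell by 1.93 ± 0.06. Over all genes 20.3% rose and 24.2% fell in D218Y, and 11.8%, 9.36% and 10.3% rose in R216Q, R216W and D218G. None of 10 granulocyte and monocyte, 9 lymphoid or 8 endothelial markers rose in any mutant by limma with adjustment. At an unadjusted p under 0.05, 1 granulocyte and monocyte marker and 1 endothelial marker were higher in R216Q, and with quantile or cyclic loess scaling 1 of each list passed there. Without replicate 3 of D218G, 2 granulocyte and monocyte markers passed as higher in D218G.

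Red cell genes that GATA1 switches on fell where Gata2 rose, but also where it fell. Of 24 measured, 24 fell in D218Y (median -0.95), 18 in R216Q (median -0.34), 16 in R216W (median -0.15) and 19 in D218G (median -0.37). Over all genes 24.2%, 9.65%, 7.23% and 7.77% fell in these lines. No gene of the list rose by limma, and 0 were higher at an unadjusted p under 0.05. With median centring 9 fell in R216W. D218G thus had more falls and a lower median than R216W, while its Gata2 was 1.54 ± 0.04 lower. Slc4a1, the band 3 anion exchanger, fell by 5.60 ± 0.05 in D218Y and by 1.11 ± 0.05 in D218G, and was at -0.12 ± 0.05 in R216W (adjusted p = 0.145). In R216W Slc4a1 did pass with array weights (-0.14, adjusted p = 0.0343). Tmod1, which caps actin in the membrane skeleton, fell by 0.80 ± 0.06 in D218G and by 0.54 ± 0.06 in R216W. Klf1, Epor, Alas2, Slc4a1, Hba-x and Hbb-y of this list are also among the red cell markers above. Zfpm1 and Gfi1b are also in the GATA1 complex list, so these results share genes.

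The genes beside Gata2 on its chromosome did not follow it in D218G. Of the 10 nearest measured genes, 5 on each side, 4 rose in R216Q, 3 in R216W, 5 in D218G and 6 in D218Y, and 0, 0, 0 and 2 fell, where 11.8%, 9.36%, 10.3% and 20.3% of all genes rose. The 2 falls in D218Y became 1 with quantile or cyclic loess scaling and 0 with median centring. The medians were 0.06, 0.04, 0.11 and 0.20. Rpn1, the nearest measured gene on the side of the distal start and a subunit of the enzyme that attaches sugars to new proteins, read 9.48, 9.56 and 9.49 in wild type and 10.55, 10.50 and 10.57 in D218Y. It rose by 1.03 ± 0.04 in D218Y, 0.51 ± 0.04 in R216Q, 0.25 ± 0.04 in R216W and 0.30 ± 0.04 in D218G (adjusted p = 8.20e-05). In D218G Rpn1 and Gata2 thus lay on opposite sides of wild type.

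The nearest measured gene on the other side, the chaperone gene Dnajb8, was at -0.22 ± 0.08 in D218Y (adjusted p = 0.034), a call that was lost under each other scaling, and without replicate 3 of wild type (-0.14) or replicate 1 (-0.19) or 2 (-0.23) of D218Y. Beyond it, Eefsec, the elongation factor for selenocysteine, rose by 0.25 ± 0.04 in D218Y. The ATPase gene Ruvbl1 rose by 0.90 ± 0.05 and Sec61a1, the channel for proteins entering the endoplasmic reticulum, by 0.68 ± 0.04. Sec61a1 was at 0.12 ± 0.04 in D218G, where its call (adjusted p = 0.0396) was lost with cyclic loess or median scaling, with the replicate number as a block (adjusted p = 0.0603) and when any of 11 single arrays was left out. Hmces, which guards damaged DNA, rose by 0.44 ± 0.04 in D218Y and by 0.18 ± 0.04 in D218G. Copg1, of the vesicle coat, rose by 0.15 ± 0.04 in D218Y and 0.16 ± 0.04 in D218G. Rab7, a regulator of late endosomes, fell by 0.14 ± 0.04 in D218Y, a call that was lost with median centring (-0.04) and without replicate 3 of wild type (-0.12) or of D218Y (-0.11). H1f10 (-0.18 ± 0.10) and Kbtbd12 (-0.06 ± 0.04) did not pass in D218Y or elsewhere.

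**Figure D4:**
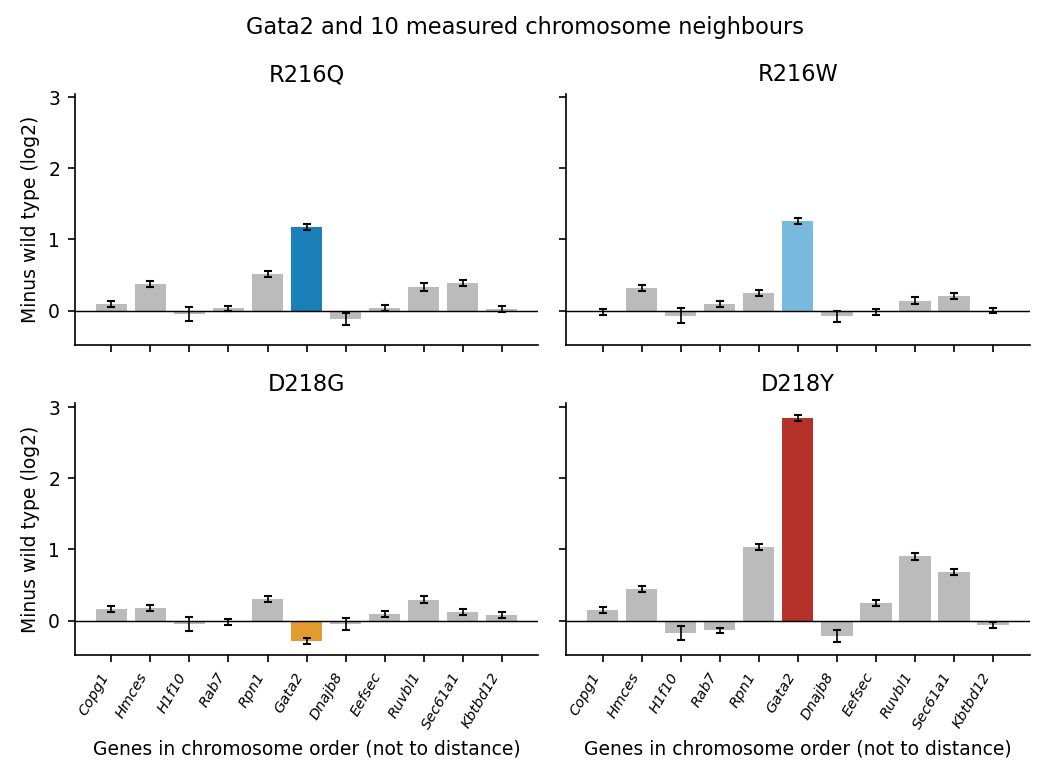
Mutant minus wild type difference (log2, vertical axis) of Gata2 (coloured bar) and its 10 nearest measured genes (grey bars) in chromosome order, not to distance, with a panel per mutant and SE as error bars. Rpn1, Ruvbl1 and Sec61a1 lie above 0 in D218G, where Gata2 lies below.

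Genes whose values ran most like those of Gata2 were sought over all arrays. Likeness was the Pearson correlation over 15 arrays, among 871 named genes that passed the F test and spanned at least 1 log2 unit over the line means. The arrays fall into 5 lines, so the correlation mostly compares line means and is given as a description. The highest was Eml4, a microtubule protein (r = 0.989), which read 9.07, 9.17 and 9.09 in wild type and 10.27, 10.22 and 10.28 in D218Y. Next came Elovl6, a fatty acid elongase (0.982), Usp28, a deubiquitinase (0.980), Cyb5b, a cytochrome of the outer mitochondrial membrane (0.975), and Mical1, which disassembles actin (0.973). Gfpt1, which opens the hexosamine pathway (0.972), Cmtm7 (0.969) and Nabp1, a single-strand DNA binding protein (0.964), completed the first 8. Since they were chosen for this correlation and for their span over the same arrays, their direction in the lines with high Gata2 follows from the choice. The size of their D218Y differences and their nearness to wild type in D218G largely follow from the choice too. Neither is a separate result. Their differences in D218Y ran from 1.07 (Mical1) to 1.87 (Nabp1), against 2.85 for Gata2. None of the 8 passed in D218G, where they lay between -0.20 (Usp28, adjusted p = 0.202) and 0.23 (Nabp1, adjusted p = 0.177). Usp28 did pass there without replicate 3 of D218G (-0.34, adjusted p = 0.000927), with quantile scaling (-0.25, adjusted p = 0.0408) and with array weights (-0.29, adjusted p = 0.0272).

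The lowest correlations were those of Grina (-0.982), Tuft1 (-0.980), Tmem120b (-0.976) and Grtp1 (-0.974). Tnfrsf14, a receptor on blood cells (-0.970), Dusp1, a phosphatase that stops MAP kinases (-0.965), Lmna, the nuclear lamin A/C gene (-0.961), and Natd1 (-0.960) followed. They were chosen in the same way, so their falls in the lines with high Gata2 also follow from the choice. Grina read 11.79, 11.77 and 11.73 in wild type, 11.30, 11.26 and 11.27 in R216Q, and 10.71, 10.76 and 10.68 in D218Y. Dusp1 fell by 1.98 in D218Y, and 4 of these 8 genes also fell in D218G: Dusp1 (-0.33, adjusted p = 6.51e-05), Tnfrsf14 (-0.26, adjusted p = 0.000483), Lmna (-0.11, adjusted p = 0.0379) and Grtp1 (-0.13, adjusted p = 0.0488). The calls of Lmna and Grtp1 were lost with median centring, array weights or the replicate block and without many single arrays. The names depend on the measure and on the arrays used. With Spearman's rank correlation 2 of the 16 genes would again be named, and without the D218Y arrays 1 would. The second count was largely set by the span, which was then asked of the remaining line means. Those of Eml4, for example, ran only from 9.10 to 9.66. Over the 12 arrays without D218Y the correlation of Eml4 with Gata2 was 0.967 and that of Grina was -0.960. These arrays were among those that chose both genes.

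**Figure D5:**
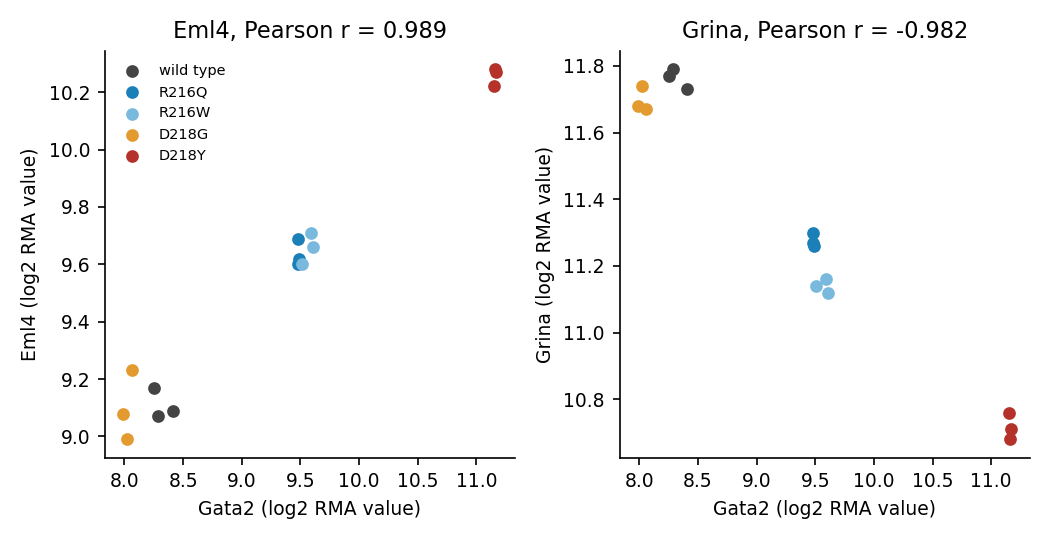
Log2 RMA value of Eml4 (left) and Grina (right, vertical axes) against that of Gata2 (horizontal axes) on 15 arrays, coloured by line. Both panels show the arrays gathered by line, with D218G beside wild type, the R216 lines in the middle and D218Y at the far end.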

How the data were processed

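RNA from 15 G1E cultures was measured on Affymetrix mouse arrays. The deposited log2 values, 1 per probe set and array, were made by the authors with Partek 6.6 and RMA, per the submitters' processing notes. RMA corrects background, normalizes arrays by quantiles, summarises probes and compresses differences of dim genes. The notes used here hold no settings. The values ran from 2.89 to 13.58 and were used unchanged, without a filter. Arrays carry no read depth, and their number limits the precision.

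Probe sets with 1 gene symbol (21780) gave 19933 genes, the brightest probe set on average standing for a gene with several. Groups came from sample titles. The fit was limma 3.58.1 in R 4.3.3 with 1 mean per line over all arrays, eBayes, and Benjamini-Hochberg adjustment over all genes within each of 11 contrasts, and a gene was called at an adjusted two-sided p under 0.05. It was first tested on simulated data. "Rose" and "fell" mean a call. P-values rest on the spread among these 15 cultures only. Named genes were Gata2, its family and neighbours, and the 8 highest and 8 lowest correlations. From each list came up to 4 of its larger called changes and any member the account needs, so some large changes are not named. Members and lists were chosen with earlier results of these data known. Replicate numbers are shared between lines. Deviations from the line means in 30 same-numbered pairs of arrays correlated at r from -0.50 to 0.41 (median -0.02), with 3 pairs over 0.1. The deviations were thus related in some pairs, in either direction, without a common sign. The numbers were not taken as pairs, and the block is given as an alternative. List counts under quantile and median scaling, and without replicate 3 of D218G, were chosen after seeing the data.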

Additional observations from a re-analysis of the deposited data

Results flagged for a closer look

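The gap in Gata2 between substitutions of a residue differed between residues: D218Y minus D218G exceeded R216W minus R216Q by 3.05 ± 0.06 (log2, SE, limma adjusted p = 1.26e-13, n = 3 arrays per line). All D218Y arrays lay above all D218G arrays, and the share of all genes that separate in this way is not given here. Line and mutation cannot be told apart here.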

How the results depend on the processing

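Each of the 11 Gata2 differences was recomputed under 26 alternatives, and 10 of them kept their direction and their side of the threshold under all of these. Many alternatives could not move the size or direction of a Gata2 difference, only its adjusted p. These were other variance settings, other handling of probe sets, the replicate block, and leaving out lines or arrays not compared. Kept direction under them was fixed in advance. The exception was R216W minus R216Q, which passed with array weights (0.09, adjusted p = 0.0376), while its adjusted p under the other alternatives reached 0.509. Over all alternatives the D218Y rise ran from 2.80 to 2.94, the R216W rise from 1.20 to 1.30, the R216Q rise from 1.13 to 1.21 and the D218G difference from -0.32 to -0.24. The D218G difference was smallest without replicate 3 of wild type, and its adjusted p was highest (0.0168) with only the compared lines in the fit. With the replicate number as a block, the replicate block left the D218G difference at -0.29 and R216W minus R216Q at 0.09 (adjusted p = 0.225), and it changed no Gata2 call; among the other genes named, Gata5 (D218Y), Sec61a1, Grtp1 and Lmna (D218G) lost theirs, with adjusted p from 0.057 to 0.0668. Of the 112 counts of list genes, 22 changed by more than 1.5 times with median centring, 9 with cyclic loess, 8 at an adjusted p under 0.01, 7 with quantile scaling, 6 without replicate 3 of D218G and 3 with the block; the cause was not tested.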
